A study of Homo sapiens with 6 samples.

Results

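The interferon system was followed through 7 genes, 2 for interferons (IFNB1 and IFNL1) and 5 for interferon receptor subunits (IFNAR1, IFNAR2, IFNGR1, IFNGR2 and IFNLR1). They were chosen by symbol, as the rows whose Ensembl identifier carries that symbol on a primary chromosome, out of 63677 genes in the deposited count table, and all 7 passed the filter on low counts. IFNL1 passed it only through the treatment in which it was higher. RNA-Seq had been performed on RPMI8226 cells, an established human multiple myeloma cell line of genotype WT, given either GST-PTR1 or GST at 100 nM for 6 hr. GST-PTR1 is a recombinant protein that joins glutathione-S-transferase (GST) to the PTR1 domain of HAPLN1, a matrix protein. GST by itself was the control, so that both treatments carry GST and differ by design in the PTR1 domain. GST-fused proteins were purified from Escherichia coli. The paper reports bacterial LPS at levels orders of magnitude under what its NF-κB binding assay detects in these cells. An effect of LPS on RNA levels was not tested here. Each treatment had 3 libraries, described as biological replicates, and all came from this 1 cell line, without other cells of the bone marrow. The question was which parts of the interferon system changed in RNA level with GST-PTR1 relative to GST.

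Interferons are secreted antiviral cytokines that fall into 3 types by the receptor they bind. IFNB1 encodes interferon beta, a type I interferon, which binds a receptor made of IFNAR1 and IFNAR2. IFNL1 encodes interferon lambda 1, a type III interferon, whose receptor pairs IFNLR1 with IL10RB, a subunit also used by the IL-10 family. Interferon gamma, the type II interferon, binds IFNGR1 and signals with IFNGR2. IFNB1 is the textbook example of a gene switched on by the joint binding of NF-κB, interferon regulatory factors (IRFs) and AP-1 factors just upstream of its start. The receptors signal through JAK kinases and STAT factors to interferon-stimulated genes, and plasma cells, from which myeloma arises, respond to both type I and type II interferon.

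Upstream sequences are shown for 3 of the genes that rose, because IFNB1 is the classical NF-κB and IRF target, IFNL1 is the second interferon, and IFNGR2 is the receptor gene with the clearest change. The sequences are the 250 bases before the transcription start given by RefSeq for GRCh38.p14, written 5′ to 3′ on the strand of the transcript. They are IFNB1 at chr9:21077943-21078192 (minus strand), IFNL1 at chr19:39296157-39296406 (plus strand) and IFNGR2 at chr21:33403163-33403412 (plus strand). Capitals mark matches to the NF-κB consensus, to an IRF core spelled AANNGAAA and to a TATA box spelled TATAAA, each on either strand, so that a match on the other strand reads as its reverse complement.
IFNB1: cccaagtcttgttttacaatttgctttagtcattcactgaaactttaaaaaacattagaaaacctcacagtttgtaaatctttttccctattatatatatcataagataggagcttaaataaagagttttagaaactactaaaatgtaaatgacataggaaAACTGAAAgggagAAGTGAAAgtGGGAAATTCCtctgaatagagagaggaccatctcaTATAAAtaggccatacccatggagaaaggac
IFNL1: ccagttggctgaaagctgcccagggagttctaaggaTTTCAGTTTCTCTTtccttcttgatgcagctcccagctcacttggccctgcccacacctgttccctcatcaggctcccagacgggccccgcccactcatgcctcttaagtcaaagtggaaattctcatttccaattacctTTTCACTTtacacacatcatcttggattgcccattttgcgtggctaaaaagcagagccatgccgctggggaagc
IFNGR2: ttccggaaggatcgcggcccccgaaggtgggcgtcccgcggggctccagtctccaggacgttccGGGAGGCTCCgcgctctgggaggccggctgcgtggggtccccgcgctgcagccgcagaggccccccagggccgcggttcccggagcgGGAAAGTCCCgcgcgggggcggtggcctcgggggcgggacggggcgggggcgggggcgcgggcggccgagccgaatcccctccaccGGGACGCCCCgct

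In the IFNB1 sequence, IRF cores lay from -89 to -82 and from -76 to -69 relative to the start, followed by an NF-κB match (GGGAAATTCC) from -66 to -57 and a TATA box from -31 to -26. These matches did not overlap each other. Of 35116 promoters of the same length, 9.96% held an NF-κB match, 20.3% an IRF core, 10.7% a TATA box and 1.18% both an NF-κB match and an IRF core. The IFNL1 sequence held 3 IRF cores on the other strand, from -214 to -207, -208 to -201 and -74 to -67, the first and second overlapping, and 0.92% of promoters held at least 3. The IFNGR2 sequence held 3 NF-κB matches, from -186 to -177, -99 to -90 and -13 to -4, and 0.31% of promoters held at least 3. It was also GC-rich, at 80.4% GC with 37 CpG, against 32.4% GC and 0 CpG for IFNB1 and medians of 58% and 11 over all promoters. The share of 0.31% was taken over all promoters and was not matched for GC content. How often windows as GC-rich as this one hold 3 NF-κB matches was thus not tested. An AP-1 site spelled TGANTCA (6.57% of promoters) was also searched and had no match in any of the windows, that of IFNB1 included. The IFNL1 sequence held no NF-κB match and the IFNGR2 sequence no IRF core. None of the motifs searched had a match in the windows of IFNLR1, IFNAR1, IFNGR1 or IL10RB. A match is a likeness of letters only, and binding was not measured here.

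**Figure D1:**
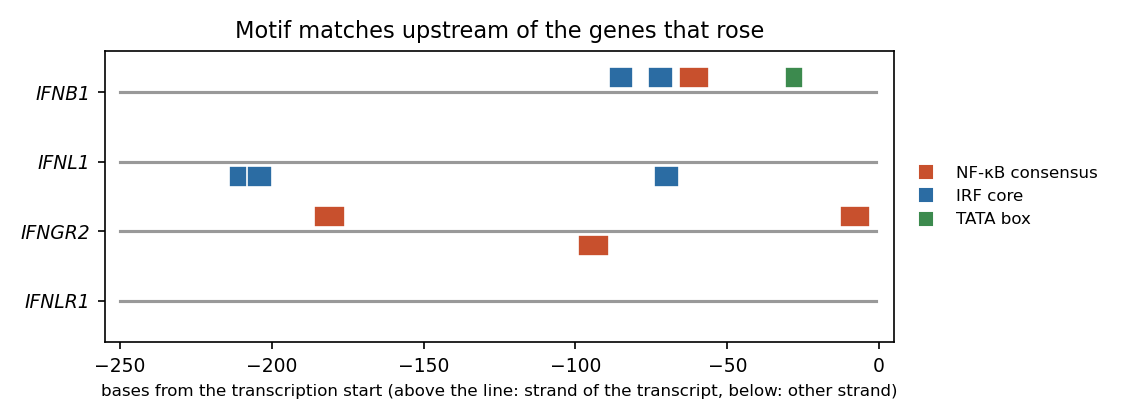
Motif matches in the 250 bases upstream of IFNB1, IFNL1, IFNGR2 and IFNLR1. The x axis gives bases from the transcription start, boxes above a line are matches on the strand of the transcript and boxes below it are on the other strand. IFNB1 holds 2 IRF cores, 1 NF-κB match and 1 TATA box within 90 bases of the start, IFNL1 holds 3 IRF cores, IFNGR2 holds 3 NF-κB matches, and IFNLR1 holds none.

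The GST libraries had 15202503, 20077280 and 23453473 counts and the GST-PTR1 libraries had 22874133, 28837431 and 44688737, and values below follow this order within each treatment. Levels are given as CPM, a gene's share of its library's counts, on library totals scaled by edgeR's TMM factors, and comparisons between genes as RPKM, the same value per kilobase of exon. Differences are log2 fold changes of GST-PTR1 over GST from edgeR's quasi-likelihood test, and a gene was called at an adjusted p under 0.05 (Benjamini-Hochberg over the 16926 genes tested). Scaling by plain library totals instead shifted the median over all tested genes by -0.20 on the log2 scale, and every difference below would shift by about as much. The 9 plasma cell markers examined were all detected, with summed levels of 4071 to 4781 CPM with GST and 3951 to 4901 CPM with GST-PTR1, the largest part being JCHAIN. Single markers changed in either direction, SDC1 (-1.03), TNFRSF17 (-1.41) and XBP1 (-0.47) being called lower and PRDM1 (1.35), IRF4 (0.65) and SLAMF7 (1.52) higher on the log2 scale. The T cell genes CD3D, CD3E and CD3G, the NK cell genes KLRD1, NKG7, GNLY and NCR1, and 5 of 6 stromal cell markers had at most 3 counts in every library. Of the same lists, NCAM1 (66.8 CPM with GST and 46.8 CPM with GST-PTR1), CD8A (5.07 and 3.12 CPM) and CD4 (0.77 and 0.247 CPM) were detected and called lower.

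With GST-PTR1, both interferon genes and 2 of the 5 receptor genes rose, and none of the 7 fell. The 4 genes called higher were IFNL1, IFNB1, IFNGR2 and IFNLR1, with folds from 2.07 to 3.11, whereas IFNAR1, IFNAR2 and IFNGR1 were not called. Of all genes tested, 9.15% were called higher, 11.4% were called lower, and 3.68% were called at least 2-fold higher, as were all 4 of these genes. IFNL1 was tested only because its GST-PTR1 libraries were high enough. The counts and the median that include it are therefore not independent of that filter. The median log2 fold change of the 7 genes was 1.05 (0.85 with library totals), against 0.01 over all genes tested. Higher levels without overlap between treatments were seen for 5 of the 7 genes, IFNAR2 being the fifth, and for 19.2% of all genes tested. On library totals this held for 4 of the 7, and IFNAR2 overlapped. The count of 0 genes lower also held at an unadjusted p under 0.05 with edgeR (0 genes) and after adjustment with DESeq2 (0 genes) or limma's voom (0 genes).

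**Figure D2:**
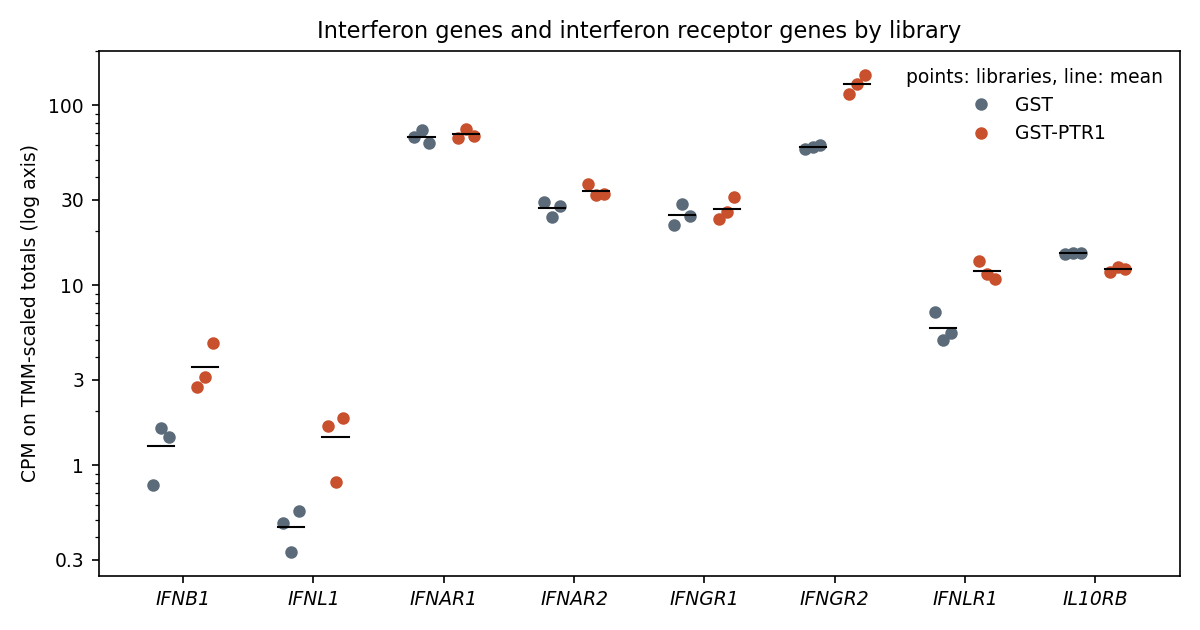
Levels of the 7 genes and of IL10RB in each of the 6 libraries. The y axis is CPM on TMM-scaled totals on a log axis, points are libraries in order of depth within each treatment, and black lines are means (n = 3). The 3 GST-PTR1 libraries lie above all GST libraries for IFNB1, IFNL1, IFNAR2, IFNGR2 and IFNLR1, overlap with them for IFNAR1 and IFNGR1, and lie below them for IL10RB.

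IFNB1 (ENSG00000171855) is a single-exon gene of 840 bases on chromosome 9 of GRCh37, from 21077104 to 21077943 on the minus strand. Its counts were 13, 34 and 36 with GST and 61, 85 and 188 with GST-PTR1. This amounted to 0.780, 1.61 and 1.44 CPM with GST and 2.74, 3.11 and 4.77 CPM with GST-PTR1. Every GST-PTR1 library thus lay above every GST library, the shallowest GST library being the lowest and the deepest GST-PTR1 library the highest. The level rose from 1.28 ± 0.438 to 3.54 ± 1.08 CPM (mean ± SD, n = 3), and edgeR put the log2 fold change at 1.46 with a standard error of 0.30 (adjusted p = 0.00614), or 2.74-fold with a 95% interval of 1.74 to 4.34. In these bulk libraries, more cells with IFNB1 RNA and more IFNB1 RNA per cell cannot be told apart.

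IFNL1 (ENSG00000182393), on chromosome 19 of GRCh37 from 39786965 to 39789313 on the plus strand, was the least abundant of the 7 genes. It had 8, 7 and 14 counts with GST and 37, 22 and 72 counts with GST-PTR1, or 0.480, 0.331 and 0.561 CPM against 1.66, 0.805 and 1.83 CPM. The treatments did not overlap, although the GST-PTR1 library of 28837431 counts, at 0.805 CPM, was far nearer to the GST libraries than the other two were. The level rose from 0.458 ± 0.117 to 1.43 ± 0.547 CPM (mean ± SD, n = 3), and edgeR put the log2 fold change at 1.64 with a standard error of 0.38 (adjusted p = 0.0121). The fold was 3.11 with a wide 95% interval of 1.73 to 5.59. This call rested on few counts, and with its GST libraries alone IFNL1 would not have passed the filter on low counts. Without the GST library of 20077280 counts the log2 fold change was 1.45 and the adjusted p was 0.0526 in the same edgeR test.

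The other 20 interferon genes in the table were all too low to be tested. Those with more than 3 counts in some library were IFNA1, IFNA2, IFNA8, IFNA13, IFNA17, IFNE, IFNW1, IFNL2 and IFNL3, 9 genes in all, while 11 did not pass that level, and IFNA6, IFNK, IFNG and IFNL4 had no count in any library. For IFNG, the gene of interferon gamma, 3 counts, the limit that a count of 0 allows, were worth between 0.0761 and 0.180 CPM, so that a lower level was not detectable at this depth. Such limits and the intervals below cover counting error only.

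IFNL2 and IFNL3 encode the closest relatives of interferon lambda 1 and lie beside IFNL1 on chromosome 19, from 39759154 to 39760732 and from 39734246 to 39735646. IFNL2 had 4, 6 and 9 counts with GST and 23, 7 and 30 with GST-PTR1, a ratio of summed counts per scaled depth of 2.22 (95% exact interval 1.31 to 3.95). IFNL3 had 2 counts in each GST library and 9, 7 and 15 with GST-PTR1, a ratio of 3.64 (1.496 to 10.7). For IFNL2 the GST-PTR1 library of 28837431 counts was within the range of the GST counts, and it had also been the nearest to that range for IFNL1. When every gene with at least 1 count was tested, the adjusted p was 0.0419 for IFNL2 and 0.0367 for IFNL3 (edgeR). That setting gave far smaller adjusted p than the main edgeR test for IFNB1 (4.53e-08 against 0.00614) and IFNL1 (2.3e-05 against 0.0121). The values for IFNL2 and IFNL3 are therefore not comparable with the main calls. IFNL2 and IFNL3 are near-identical copies and reads that map to several places were left out, so their counts are incomplete and the split between them is uncertain.

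The 13 interferon alpha genes, type I interferons clustered with IFNB1 on chromosome 9, reached at most 10 counts in any library. Summed over the 13 genes, there were 5, 6 and 14 counts with GST and 19, 5 and 42 with GST-PTR1, so that the treatments overlapped. The ratio of the sums per scaled depth was 1.86 (95% exact interval 1.16 to 3.08), which takes no account of the spread between libraries, and reads shared between these similar genes were also left out. IFNE, an interferon of the reproductive tract, had 6, 4 and 10 counts with GST and 6, 5 and 6 with GST-PTR1, a ratio of 0.599 (0.295 to 1.20). By comparison, the same ratio was 2.83 (2.22 to 3.65) for IFNB1 and 3.18 (2.12 to 4.94) for IFNL1.

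IFNGR2 (ENSG00000159128), the signaling subunit of the interferon gamma receptor, had the highest RPKM of the 7 genes in both treatments and the smallest adjusted p. It is on chromosome 21 of GRCh37 from 34775202 to 34851655 on the plus strand. Its level was 57.3, 58.8 and 60.2 CPM with GST and 116, 131 and 148 CPM with GST-PTR1. The GST libraries were close to each other, and the lowest GST-PTR1 library lay well above them. The level rose from 58.7 ± 1.44 to 132 ± 16.1 CPM (mean ± SD, n = 3), and edgeR put the log2 fold change at 1.17 with a standard error of 0.11 (adjusted p = 3.14e-05), or 2.25-fold (95% interval 1.90 to 2.66). Of its exon bases, 12.8% are covered on the opposite strand by TMEM50B. That gene changed the other way, by a log2 fold change of -0.48 (adjusted p = 0.0129, edgeR), and the counts were made by strand.

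IFNGR1 (ENSG00000027697), the ligand-binding partner on chromosome 6 of GRCh37 from 137518621 to 137540586 on the minus strand, was not called. Its level was 21.6, 28.2 and 24.3 CPM with GST and 23.4, 25.7 and 30.8 CPM with GST-PTR1, and the treatments overlapped. The log2 fold change was 0.11 (95% interval -0.20 to 0.42, adjusted p = 0.609 from edgeR), and its sign turned with library totals (-0.09). Within each library, the RPKM of IFNGR1 was 0.417, 0.529 and 0.446 of that of IFNGR2 with GST, and 0.223, 0.216 and 0.229 with GST-PTR1. The ratio was lower in every GST-PTR1 library than in any GST library, with a mean log2 difference of -1.05, and such a ratio does not depend on how libraries are scaled. An exact two-sided permutation test gave p = 0.1, the smallest that 3 libraries against 3 can give, and 0.15 after adjustment over the 3 receptor pairs tested.

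IFNLR1 (ENSG00000185436) encodes the subunit that gives the interferon lambda receptor its specificity, and it is on chromosome 1 of GRCh37 from 24480647 to 24514449 on the minus strand. Its level was 7.08, 4.97 and 5.41 CPM with GST and 13.6, 11.6 and 10.8 CPM with GST-PTR1. The treatments did not overlap, and the deepest GST-PTR1 library was the lowest of its treatment here, unlike for IFNB1. The level rose from 5.82 ± 1.12 to 12.01 ± 1.46 CPM (mean ± SD, n = 3), and edgeR put the log2 fold change at 1.05 with a standard error of 0.17 (adjusted p = 0.00144), or 2.07-fold (95% interval 1.60 to 2.68). Both the ligand gene IFNL1 and the gene of its specific receptor subunit thus rose in these cultures.

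IL10RB, the shared partner of IFNLR1, was 14.9, 15.1 and 15.1 CPM with GST and 11.9, 12.7 and 12.3 CPM with GST-PTR1. All GST-PTR1 libraries were below all GST libraries, as for 21.2% of all genes tested (40.4% did not overlap in either direction), but the gene was not called (log2 fold change -0.29, 95% interval -0.54 to -0.04, adjusted p = 0.0926 from edgeR). With library totals its log2 fold change was -0.49 and it was called lower (adjusted p = 0.0137). The RPKM of IFNLR1 was 0.246, 0.170 and 0.185 of that of IL10RB with GST and 0.593, 0.472 and 0.455 with GST-PTR1. This ratio was higher with GST-PTR1 without overlap, by 1.35 on the log2 scale (exact two-sided permutation p = 0.1, the smallest possible, adjusted p = 0.15 over 3 pairs). It uses the full exon length, although 22.3% of the exon bases of IL10RB, shared with a read-through transcript, were not counted. The ratio is therefore too high by the same factor in every library, which leaves the difference between treatments unchanged.

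IFNAR1 (ENSG00000142166) and IFNAR2 (ENSG00000159110) encode the subunits through which interferon beta and all interferon alpha signal. IFNAR1 was 67.0, 73.0 and 61.5 CPM with GST and 65.7, 73.8 and 67.9 CPM with GST-PTR1. The treatments overlapped almost fully, and the log2 fold change was 0.04 (95% interval -0.19 to 0.27, adjusted p = 0.803 from edgeR). The sign for IFNAR1 turned with library totals (-0.15) and without either of 2 libraries. IFNAR2 was 29.2, 23.9 and 27.5 CPM with GST and 36.6, 32.0 and 32.1 CPM with GST-PTR1. The IFNAR2 libraries did not overlap on this scale, although they did on library totals, and the log2 fold change of 0.32 (standard error 0.12, 95% interval 0.06 to 0.59) had an unadjusted p of 0.0215 and an adjusted p of 0.0817 in edgeR's test, and it was not called. The interval for IFNAR1 allows a rise of up to 1.21-fold. The RPKM of IFNAR1 was 1.82 times that of IFNAR2 with GST and 1.497 times with GST-PTR1 (means on the log2 scale), with overlap between treatments (exact two-sided permutation p = 0.3, adjusted p = 0.3). As 9.36% of the exon bases of IFNAR2 were likewise shared and not counted, this ratio too is too high by the same factor in every library.

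**Figure D3:**
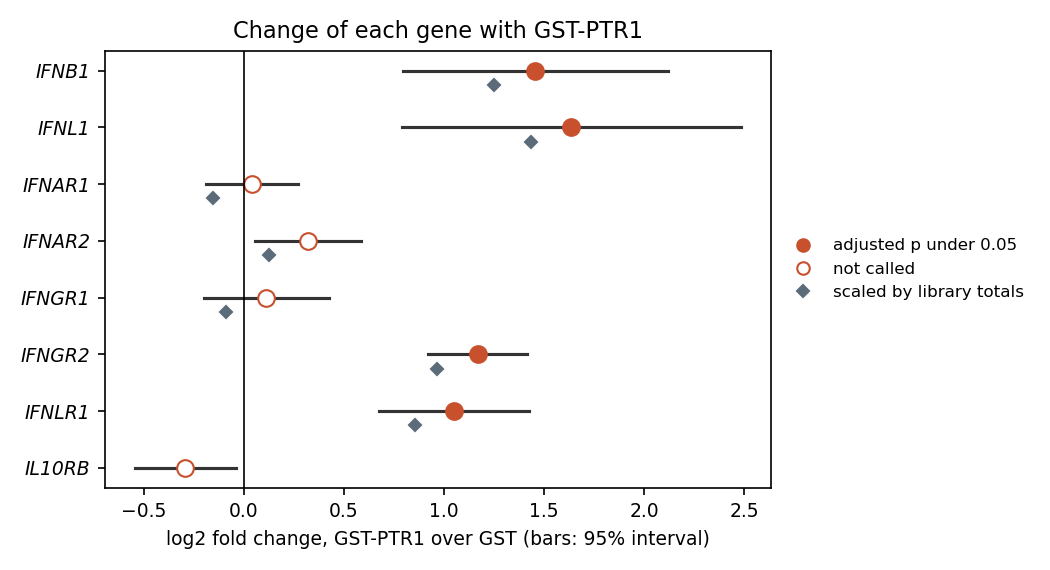
Change of each gene with GST-PTR1. The x axis is the log2 fold change of GST-PTR1 over GST from edgeR, with 95% intervals as bars, circles filled where the adjusted p is under 0.05, and diamonds for the 7 genes scaled by library totals. IFNB1, IFNL1, IFNGR2 and IFNLR1 lie between 1.05 and 1.64 and stay above 0 with either scaling, while the sign of IFNAR1 and IFNGR1 depends on it.

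IFNAR2, IL10RB, IFNAR1 and IFNGR2 follow each other in this order on the plus strand of chromosome 21 of GRCh37, from 34602206 to 34851655, a span of 249.4 kb. The gaps between them are 0.683, 27.2 and 43.0 kb. Of these 4 neighbours, IFNGR2 at the far end was called, and the log2 fold changes along the cluster were 0.32, -0.29, 0.04 and 1.17. An annotated read-through transcript, IFNAR2-IL10RB, shares 9.36% of the exon bases of IFNAR2 and 22.3% of those of IL10RB on the same strand. It had 0 counts in every library. Reads in the shared bases were not counted for either gene or for the read-through, so the 0 does not show whether the read-through is transcribed. A further 39.1% of the exon bases of IFNAR2 are covered on the opposite strand by IL10RB-DT, which had at most 3 counts in any library.

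Ranked by RPKM, the order with GST was IFNGR2 (19.8), IFNAR1 (10.6), IFNGR1 (9.21), IL10RB (5.91), IFNAR2 (5.83), IFNB1 (1.52), IFNLR1 (1.18) and IFNL1 (0.534). The libraries of IFNAR1 and IFNGR1, of IL10RB and IFNAR2, and of IFNB1 and IFNLR1 overlapped. With GST-PTR1 the order was IFNGR2 (44.6), IFNAR1 (10.9), IFNGR1 (9.94), IFNAR2 (7.28), IL10RB (4.83), IFNB1 (4.21), IFNLR1 (2.44) and IFNL1 (1.67). IFNAR1 and IFNGR1 again overlapped, as did IL10RB and IFNB1, whereas IFNAR2 now lay above IL10RB in every library. These values use the full exon length, although bases shared with the read-through were not counted. Over the unshared bases, IL10RB was 7.53 to 7.66 RPKM with GST, above IFNAR2 at 5.71 to 6.99. With GST-PTR1 it was 6.01 to 6.41 RPKM, below IFNAR2 at 7.65 to 8.76 and no longer overlapping with IFNB1, and IFNAR2 then overlapped with IFNGR1. The receptor genes of the type I and type II systems were thus more abundant than either interferon gene in both treatments.

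**Figure D4:**
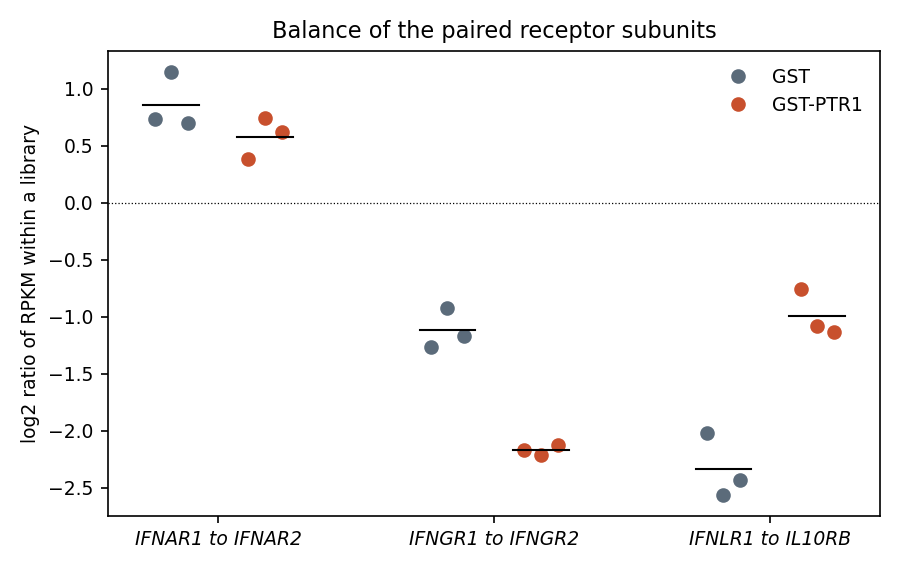
Balance of paired receptor subunits within each library. The y axis is the log2 ratio of RPKM, points are libraries and black lines are means (n = 3 per treatment). RPKM uses the full exon length, which raises the ratios to IL10RB and to IFNAR2, each by a fixed factor in all libraries. The ratio of IFNGR1 to IFNGR2 has a mean of -1.11 with GST and -2.17 with GST-PTR1 and that of IFNLR1 to IL10RB has -2.34 and -0.99, both without overlap, while that of IFNAR1 to IFNAR2 overlaps between treatments.

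Genes that resembled the members were sought as the 3 nearest of all genes tested by the distance between log2 CPM profiles, each centred on its mean over the 6 libraries. The nearest to IFNB1 were TASL, an adaptor of IRF5 activation downstream of endosomal Toll-like receptors (distance 0.375), the ferritin pseudogene FTH1P1 (0.379) and the transcription factor gene TFEC (0.418). For IFNL1, the least abundant member, they were GLRXP3, TIMD4 and FBXO6, at larger distances (0.446 to 0.668). Why the distances differ between members was not tested. APOBEC3A, a cytidine deaminase, SIAH2, a ubiquitin ligase, and RAB39A were nearest to IFNGR2 (0.134 to 0.146), and WIPF1, SMOX and MIDN were nearest to IFNLR1 (0.155 to 0.175). The profiles nearest to those not called were NFXL1, TCF12 and ERAP1 for IFNAR1 (0.0521 to 0.0688), CTDP1, BOD1 and TBL3 for IFNAR2 (0.0443 to 0.0788), and DIPK1A, TMEM183BP and HNRNPA1P67 for IFNGR1 (0.0438 to 0.0766). Counts of the pseudogenes among them are uncertain because of their near-identical parent genes.

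The sensors, adaptors and transcription factors that lead to interferon production were taken as a list of 26 genes, of which 24 were tested. Of these 24, 14 were called higher and 1 lower, and 9 were at least 2-fold higher. Over all genes tested, 9.15% were called higher, 11.4% lower and 3.68% at least 2-fold higher. The median log2 fold change of the 24 was 0.39, against 0.01 over all genes tested. With library totals it was 0.20 for the 24, with 11 higher and 2 lower. NFKB1, a subunit of NF-κB, rose from 66.5 to 237 CPM (log2 fold change 1.84), IRF1, an activator of interferon genes, from 77.3 to 257 CPM (1.73), and TLR7, an endosomal sensor of single-stranded RNA, from 16.4 to 39.0 CPM (1.25). The RNA sensor genes IFIH1 and RIGI also rose, by 1.27 and 1.19. IRF7, the factor that amplifies type I interferon, rose by 0.74 (adjusted p = 0.00162, edgeR). IRF3, which is activated by phosphorylation rather than by more RNA, was not called (-0.13, adjusted p = 0.426, edgeR). The gene that fell was TLR3, a sensor of double-stranded RNA, from 1.02 to 0.347 CPM (log2 fold change -1.52, adjusted p = 0.00784, edgeR).

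Downstream of the receptors, 4 of 7 kinase and transcription factor genes were called higher, with a median of 0.49. None was called lower (0 at an unadjusted p under 0.05 with edgeR, and 0 with DESeq2 or voom). Of all genes tested, 9.15% were called higher and 11.4% lower, so that 0 lower among 7 genes says little. With library totals 2 of the 7 were called higher and the median was 0.29. STAT3 rose by 1.62 on the log2 scale, JAK2 by 0.71 and TYK2 by 0.49. STAT2 and IRF9, which belong to the transcription factor complex that type I and type III interferons activate, were not called, with log2 fold changes of -0.04 and 0.10. Among 9 genes that restrain interferon signaling, 4 were called higher and 1 lower (3 and 1 with library totals), where 9.15% of all genes tested were called higher and 11.4% lower. SOCS3 and SOCS1, which block receptor-bound JAK kinases, rose from 1.21 to 211 CPM and from 1.65 to 18.5 CPM. PTPN2, a phosphatase that acts on JAK1, rose by 0.63 and USP18, which binds IFNAR2 and damps the type I response, by 0.77 on the log2 scale, the latter with overlap between treatments. The phosphatase gene PTPN6 fell by 0.66 on the log2 scale (adjusted p = 0.0444, edgeR), also with overlap, and ISG15 was not called (0.66, adjusted p = 0.0845, edgeR).

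Of 50 interferon-stimulated genes, all tested, 33 were called higher and 0 lower (0 at an unadjusted p under 0.05, and 0 with DESeq2 or voom), and 10 were at least 2-fold higher. Over all genes tested, 9.15% were called higher, 11.4% lower and 3.68% at least 2-fold higher. The median log2 fold change of the 50 genes was 0.57, against 0.01 over all genes tested. With library totals the median of the 50 was 0.36, with 23 higher and 1 lower. CXCL11, GBP2, CXCL10 and GBP1 stood apart from the rest at 5.58, 5.20, 4.94 and 3.81. These are known targets of interferon gamma, and the chemokine genes among them also of NF-κB. IFNG had no count in any library, and what raised these genes was not tested. The antiviral gene MX1, a textbook readout of type I interferon, rose from 1326 to 2049 CPM (log2 fold change 0.63, adjusted p = 0.0238, edgeR). IFIT1 was not called (0.57, adjusted p = 0.105, edgeR). Interferon protein, receptor protein at the surface and STAT phosphorylation were not measured in these data.

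**Figure D5:**
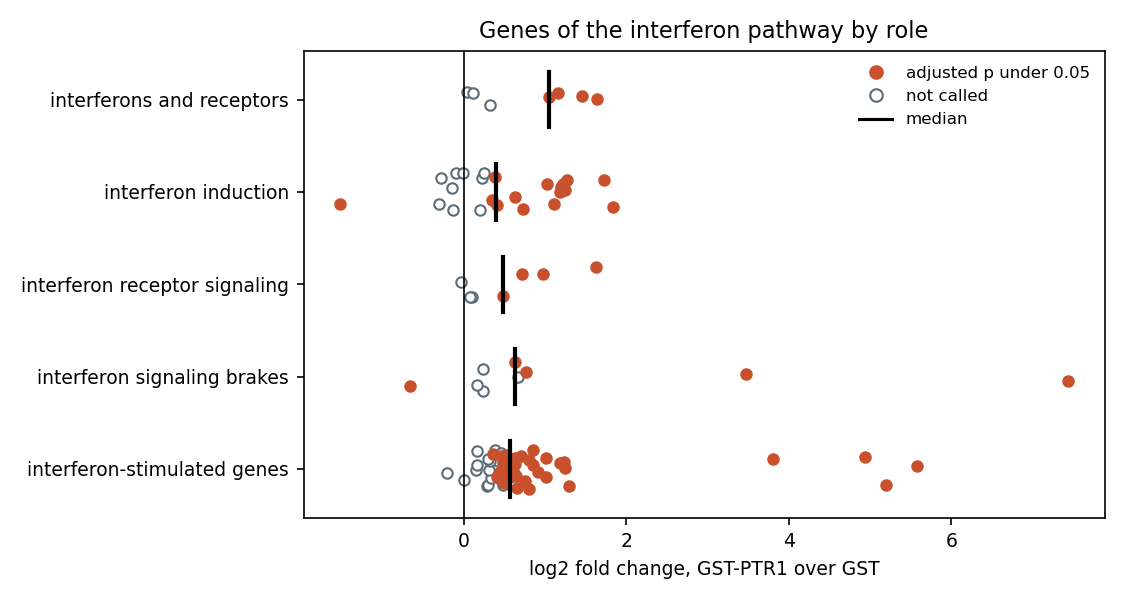
Log2 fold changes of the interferon pathway by role. The x axis is the log2 fold change of GST-PTR1 over GST, each point is a gene that was tested (filled where the adjusted p is under 0.05, vertical position without meaning), and black lines are medians. The medians are 1.05 for interferons and receptors, 0.39 for induction, 0.49 for receptor signaling, 0.63 for brakes and 0.57 for interferon-stimulated genes.

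Plasmacytoid dendritic cells and monocytes are strong interferon producers, and their markers were examined beside these values. Of 5 plasmacytoid dendritic cell markers, CLEC4C averaged 0.326 CPM with GST and 0.168 CPM with GST-PTR1, and LILRA4 0.0716 and 0.0478 CPM. IL3RA was detected at 3.07 and 2.04 CPM and was not called, and GZMB was 0.0291 and 0.136 CPM. The summed level of the 5 was 322 to 363 CPM with GST and 325 to 372 CPM with GST-PTR1. It was almost entirely TCF4, which other cells express. Of 6 monocyte or macrophage markers, the summed level was 2.94 to 4.13 CPM with GST and 5.92 to 12.2 CPM with GST-PTR1. That rise was carried mainly by S100A9 (2.34 to 7.59 CPM, log2 fold change 1.68, adjusted p = 0.00462, edgeR). S100A8 and CSF1R were too low to be tested, at 0.163 and 0.341 CPM for S100A8 and 0.421 and 0.133 CPM for CSF1R. CD14 was 0.427 and 0.364 CPM, LYZ had a single count in all libraries together and FCGR3A had none.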

How the data were processed

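RNA-Seq was performed on RPMI8226 cells after 6 hr with GST-PTR1 or GST (100 nM), 3 libraries of each, from a strand-specific mRNA kit. The authors deposited raw counts of reads per gene, made with featureCounts 1.5.0-p1 on the Ensembl release 75 annotation of GRCh37. Per the file header, reads were counted singly and by reverse strand, and multi-mapping reads and reads on more than 1 gene were dropped. Submitters' notes also name Subread, FastQC and limma. The aligner's version is not given in the sources used here. The deposited exon length served for RPKM.

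Columns were assigned to a treatment by name, and the numbers in those names differ from the samples' replicate numbers, so a library is named here by its total. No column was left out (0 columns), and no libraries agreed within sampling noise (smallest chi-square per gene 7.66). Total counts ranged from 15202503 to 44688737 per library, which sets the precision of low genes. edgeR 4.0.16 in R 4.3.3 tested the counts (TMM, filterByExpr, glmQLFit and glmQLFTest), with Benjamini-Hochberg adjustment. The script was tested on simulated data. Alternatives were DESeq2 1.42.0, limma 3.58.1 (voom), other scalings and filters, a prior count of 2 in edgeR, leaving out each library, and the shared column numbers as a block. Thinning to the smallest total, RPKM over unshared exon bases and overlap on library totals were added after seeing the data. Receptor ratios were compared by exact permutation tests. Gene names came from identifiers, and IKBKE and TRAC were not matched. Upstream sequences came from RefSeq (GRCh38.p14), where 6 of the 7 genes had an entry. IFNAR2 did not. Builds were not mixed.

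Members and lists were chosen with earlier results of these data known. Named were the 7 members, IL10RB, other interferon genes over 3 counts, the 3 genes of each list with the smallest adjusted p plus 12 fixed pathway genes (1 is not reported here), and the 3 profiles nearest to each member. Other genes were named after their values were seen.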

Additional observations from a re-analysis of the deposited data

How the results depend on the processing

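IFNB1, IFNGR2 and IFNLR1 were called higher in all 16 alternatives run, with log2 fold changes of 1.18 to 1.64, 0.97 to 1.25 and 0.855 to 1.201. The alternative with a prior count of 2 in edgeR alters the fold change but not its p, so its calls repeat those of the main test. IFNL1 was called in 14 of 15, between 1.40 and 1.92. The exception was leaving out the GST library of 20077280 counts, and under the filter that asks each library for 10 counts IFNL1 was not tested. When single libraries were left out, 3 to 4 members were higher and 0 lower, and 28 to 31 interferon-stimulated genes were higher. The log2 difference of the ratios then lay between -0.36 and -0.14 for IFNAR1 to IFNAR2, between -1.13 and -0.95 for IFNGR1 to IFNGR2, and between 1.23 and 1.51 for IFNLR1 to IL10RB. IFNAR1, never called, ranged from -0.017 to 0.109 when single libraries were left out, negative without GST at 23453473 counts (-0.017) and without GST-PTR1 at 28837431 counts (-0.002), and its sign also turned with library totals (-0.153), and that of IFNGR1 turned with library totals (-0.09).

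Over all genes, 1549 were higher and 1937 lower. With library totals this was 927 and 3788, and 1 interferon-stimulated gene was lower. Testing every gene with at least 1 count called 2608 higher. Leaving out each library in turn, between 1051 and 1531 genes were higher and between 1179 and 1818 lower. The lower count fell by over 1.5 times without GST at 23453473 counts (1237) and without GST-PTR1 at 28837431 counts (1179) or 44688737 counts (1212). The cause was not tested. The IL10RB call of lower appeared with library totals and with no other alternative.

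The column names of 4 libraries share 2 numbers across treatments. The difference between the 2 shared numbers within GST had a correlation of -0.03 across genes with the same difference within GST-PTR1. No common deviation was thus seen. A contrast from only 4 libraries cannot decide whether libraries with the same number were prepared together. In those 4 libraries, the replicate block gave 1603 genes higher and 1715 lower, against 1790 and 1848 without the block, and 27 against 29 interferon-stimulated genes higher. With the block, 4 members were higher and 0 lower, as without it. The 20 untested interferon genes had too few counts at this depth, where 3 counts were worth up to 0.180 CPM.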
